A study of Mus musculus with 7 samples.

Results

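The genes described here are lysosomal genes other than cathepsins: hydrolases, their cofactors, membrane proteins of the lysosome, the transcription factor Tfeb and subunits of the proton pump. They were taken from a list of 40 symbols, each read by the brightest probe set annotated to that symbol alone, and all 40 were found among 19938 genes. Expression was measured on 7 whole-transcript arrays of mouse retinal pigment epithelium (RPE), with 3 samples from Mfrp rd6 mice and 4 from wild type (WT), and all 7 samples had the C57Bl/6J background. Mfrp is a membrane protein of the RPE with a frizzled-like domain, and the rd6 allele is known to cause recessive retinal degeneration; the allele is carried in every cell of the animal. The age field of the labels puts the 3 Mfrp rd6 samples at 12 weeks and the 4 WT samples at 8 weeks, whereas the growth protocol puts Mfrp rd6 replicate 1 alone at 12 weeks, so age and genotype cannot be told apart if the age field is right. The comparison asked how expression in the mutant RPE differs from that in the WT RPE. Neither the number of animals in a sample nor whether replicates came from separate animals is given in the labels, so a p-value here reflects array-to-array spread that could be technical.

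The lysosome is the acid compartment in which cells break down what they take up and what they recycle. Its hydrolases work at low pH, which a proton pump of the V-ATPase type sets up with a rotating V1 part that splits ATP and a membrane part, V0, that carries the protons. The RPE engulfs the shed tips of photoreceptor outer segments every day and digests them in its lysosomes, and loss of several of these enzymes causes lysosomal storage disease, often with damage to the retina. Macrophages and microglia are rich in lysosomes as well.

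Of the 40 genes, 2 rose and 0 fell in Mfrp rd6 at a limma adjusted p under 0.05, namely the pump subunit Atp6v0d2 and the membrane glycoprotein Gpnmb. Over all 19938 genes, 1.34% rose and 0.813% fell. At an unadjusted p under 0.05, 9 of the 40 were higher and 1 was lower, beside 5.98% higher and 9.37% lower over all genes. The change, on the log2 scale and taken as Mfrp rd6 minus WT throughout, was within 0.2 in either direction for 31 of the 40 genes and reached beyond 0.3 for 6. The median change of the 40 was 0.055, and that of all genes was -0.021. In 8 genes every Mfrp rd6 array lay above every WT array, and in 1 gene every Mfrp rd6 array lay below; over all genes these patterns were found in 5.52% and 9.82%.

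**Figure D1:**
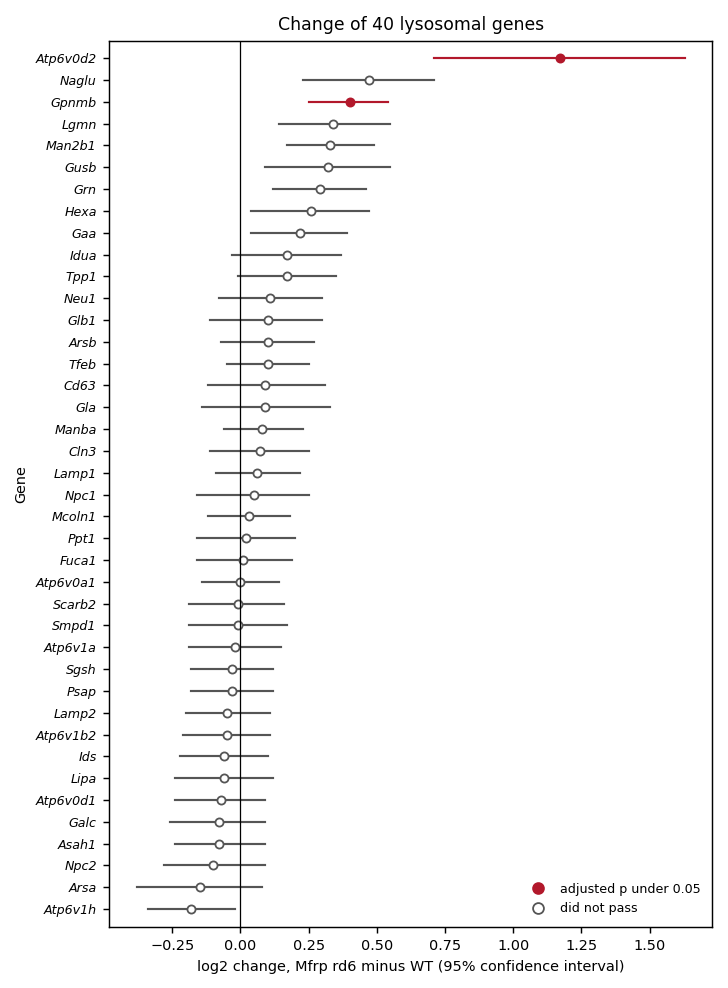
Change of the 40 lysosomal genes, Mfrp rd6 minus WT on the log2 scale (horizontal axis), with the 95% confidence interval from limma (bars); filled points passed an adjusted p under 0.05. Atp6v0d2 at 1.17 and Gpnmb at 0.40 are the filled points, and most of the other genes lie close to 0, down to -0.18 for Atp6v1h.

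The arrays had similar distributions, with medians between 6.52 and 6.58 and lower quartiles between 4.90 and 5.02 on the log2 scale, and their number limits the precision. Markers of RPE averaged 11.56 to 11.63 in Mfrp rd6 and 11.58 to 11.69 in WT. Of these 13 markers, 0 rose and 1 fell, the retinol-esterifying enzyme Lrat (-0.40, adjusted p = 0.0277), and Rpe65, the isomerase of the visual cycle, was lower on each Mfrp rd6 array than on any WT array without passing (-0.22, adjusted p = 0.24). The chloride channel gene Best1 had the lowest readings, between 5.73 and 6.02. All 21 markers of microglia and macrophages were measured, of which 16 rose and 0 fell. By limma's test, Ptprc (0.52, adjusted p = 0.0695), Csf1r (0.40, adjusted p = 0.145) and Cd14 (0.14, adjusted p = 0.397) did not pass. Nor did Itgam (-0.12, adjusted p = 0.498) and Mrc1 (-0.17, adjusted p = 0.439). Itgam was bright, with readings from 10.27 to 10.58. The lowest readings were those of Mrc1, from 4.43 to 4.88, below the arrays' lower quartiles. The mean of the 21 was 8.37, 8.80 and 8.26 in Mfrp rd6 replicates 1, 2 and 3, against 6.76 to 6.84 in WT. The mean of 12 skeletal muscle markers was 8.62, 8.89 and 8.01 in Mfrp rd6 replicates 1, 2 and 3, against 6.91, 6.98, 8.01 and 7.13 in WT replicates 1 to 4, and 2 of them rose (Myh4 and Atp2a1) and 0 fell. The mean of 8 endothelial markers was 7.25 to 7.64 in Mfrp rd6 and 6.65 to 7.13 in WT, with 2 that rose (Tek and Plvap) and 0 that fell. That of 6 fibroblast markers was 6.81 to 7.04 in Mfrp rd6 and 7.16 to 7.34 in WT, with 0 that rose and 1 that fell (Dcn). Surface epithelium markers averaged 11.37 to 11.46 in Mfrp rd6 and 11.53 to 11.69 in WT, and rod markers 6.51 to 6.88 in Mfrp rd6 and 6.74 to 8.02 in WT, with the highest rod value in WT replicate 3; 0 markers of either list changed by limma's test. In such samples of mixed cells, more cells of a type and more RNA per cell cannot be told apart. The part of these other cells in the changes below was not tested.

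Tfeb is the transcription factor that switches on many lysosomal genes together by binding the CLEAR element, a palindrome around an E-box. It read 8.32, 8.30 and 8.40 in Mfrp rd6 and 8.17, 8.26, 8.29 and 8.24 in WT. The groups did not overlap, by a margin of 1 unit in the second decimal, and the change of 0.10 did not pass (95% confidence interval -0.05 to 0.25, adjusted p = 0.536). On the brightest probe sets its relatives differed by less, with Tfe3 at -0.02 (adjusted p = 0.935) and Mitf, which also drives pigment genes, at 0.01 (adjusted p = 0.967). A second and very dim probe set of Mitf, with a mean of 3.02, differed by 0.16.

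The E-box core CACGTG was present in a larger share of the promoters of these genes than of promoters at large. RefSeq promoter windows of mouse build GRCm38.p6, from 250 bases before to 50 bases after the transcript start, were matched for 35 of the 40 genes; Npc1, Asah1, Atp6v0d2, Atp6v1b2 and Atp6v1h were not matched. CACGTG, which reads the same on both strands, occurred in 12 of the 35 (34.3%), against 8.09% of 27025 genes of all kinds with a window and 8.91% of the 17491 protein-coding ones. The 8-letter form TCACGTGA, which contains the E-box, occurred in 5 of 35 (14.3%, against 1.12% of all genes), in Mcoln1, Cln3, Gla, Atp6v0d1 and Atp6v1a. The full CLEAR palindrome, which adds a base at each end of the 8-letter form, occurred in Cln3 (1 of 35, 2.86%, against 0.37% of all genes). The M-box letters TCATGTG, searched on both strands and free of overlap with CACGTG, occurred in 5 of 35 (14.3%, against 4.31% of all genes), namely Scarb2, Gla, Tpp1, Ppt1 and Grn. Among protein-coding genes with a window, the 8-letter form occurred in 1.41%, the full palindrome in 0.469% and the M-box letters in 3.56%. All these matches are letters in a window and not measured binding sites.

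The stretches below lie before the transcript start and are shown because they carry the match, in 4 genes with the 8-letter form, in Lamp1 with its cluster of E-boxes, and in Naglu and Lgmn, whose changes are given further on. Each is written 5′ to 3′ along the gene, with CACGTG in capitals.
Cln3, chr7:126583312-126583397, minus strand: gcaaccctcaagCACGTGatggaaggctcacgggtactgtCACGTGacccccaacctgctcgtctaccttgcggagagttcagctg
Gla, chrX:134601154-134601239, minus strand: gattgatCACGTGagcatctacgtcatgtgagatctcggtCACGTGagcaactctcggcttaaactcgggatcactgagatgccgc
Mcoln1, chr8:3500408-3500493, plus strand: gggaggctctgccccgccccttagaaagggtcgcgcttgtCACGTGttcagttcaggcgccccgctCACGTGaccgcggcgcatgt
Atp6v1a, chr16:44139345-44139430, minus strand: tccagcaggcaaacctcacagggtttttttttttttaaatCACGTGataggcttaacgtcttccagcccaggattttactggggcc
Lamp1, chr8:13159076-13159160, plus strand: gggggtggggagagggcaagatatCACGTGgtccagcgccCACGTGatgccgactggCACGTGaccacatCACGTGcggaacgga
Naglu, chr11:101069981-101070066, plus strand: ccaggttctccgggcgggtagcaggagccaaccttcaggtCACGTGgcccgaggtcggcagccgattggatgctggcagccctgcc
Lgmn, chr12:102439096-102439181, minus strand: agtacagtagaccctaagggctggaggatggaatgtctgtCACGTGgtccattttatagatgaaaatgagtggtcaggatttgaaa
Lamp1 holds 4 copies within this stretch, and Cln3, Gla and Mcoln1 hold 2 each. The median log2 change was 0.06 for the 12 genes with CACGTG and 0.08 for the 23 without it.

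**Figure D2:**
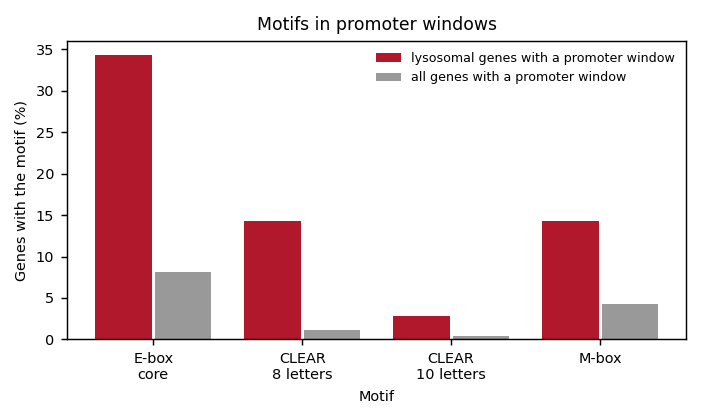
Share of genes (vertical axis, percent) whose promoter window holds each motif, for the 35 lysosomal genes with a window (left bars) and all 27025 genes with one (right bars). The left bar is the taller one for each of the 4 motifs, with 34.3% against 8.09% for the E-box core.

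Among the 8 membrane proteins, 1 rose and 0 fell, beside 1.34% and 0.813% of all genes. Gpnmb, a glycoprotein of melanosomes and lysosomes that macrophages also make, read 12.25, 12.23 and 12.20 in Mfrp rd6 and 11.88, 11.75, 11.87 and 11.82 in WT. The Mfrp rd6 arrays lay close together and all above the WT arrays. Gpnmb rose by 0.40 (SE 0.07, adjusted p = 0.015), a fold of 1.32, with means of 12.23 ± 0.03 (SD, n = 3) in Mfrp rd6 and 11.83 ± 0.06 (SD, n = 4) in WT. Gpnmb passed in 11 of 17 alternatives. Leaving out Mfrp rd6 replicate 1 (0.38, adjusted p = 0.0681), Mfrp rd6 replicate 2 (0.40, adjusted p = 0.061) or WT replicate 4 (0.39, adjusted p = 0.0561) ended the call. So did leaving out Mfrp rd6 replicate 2 with WT replicate 3 (0.41, adjusted p = 0.112). The replicate number as a block (0.39, adjusted p = 0.141) and the skeletal muscle mean as covariate (0.34, adjusted p = 0.485) ended it too. The change stayed between 0.34 and 0.41 in all 17 alternatives.

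The structural and transport proteins of the lysosomal membrane did not pass the test. Cd63, a tetraspanin of lysosomes and late endosomes, read 11.36, 11.10 and 10.99 in Mfrp rd6 and 10.95, 11.15, 11.09 and 11.04 in WT, so that Mfrp rd6 replicate 1 stood above all other arrays and the other two lay among the WT values. Lamp1 and Lamp2, the heavily glycosylated coat of the lysosomal membrane, differed by 0.06 and -0.05. The remaining members were the cholesterol exporter Npc1 (0.05), the calcium channel Mcoln1 (0.03), the Batten disease protein Cln3 (0.07) and Scarb2, the carrier of glucocerebrosidase (-0.01). The adjusted p of these 7 genes lay between 0.725 and 0.962, and their 95% confidence intervals stayed within -0.20 and 0.31.

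None of the 22 hydrolases passed limma's test. At an unadjusted p under 0.05, 6 were higher (27.3%) and 0 lower, beside 5.98% and 9.37% of all genes. The median log2 change of the 22 was 0.096. Of the 12 enzymes for sphingolipids and glycans, Man2b1, the acid alpha-mannosidase, came closest to the threshold. It read 10.03, 10.10 and 9.99 in Mfrp rd6 and 9.62, 9.72, 9.81 and 9.70 in WT, a change of 0.33 (SE 0.07, adjusted p = 0.0508). The groups did not overlap, and Man2b1 passed in 5 of 17 alternatives, with changes from 0.17 with the skeletal muscle mean as covariate (adjusted p = 0.793) to 0.36. Hexa, the alpha chain of beta-hexosaminidase whose loss causes Tay-Sachs disease, read 10.47, 10.51 and 10.24 in Mfrp rd6 and 10.03, 10.06, 10.31 and 10.20 in WT (0.26, adjusted p = 0.237). Here Mfrp rd6 replicate 3 lay below WT replicate 3, and with the skeletal muscle mean added as a covariate the change was -0.07 (adjusted p = 0.95). Gaa, the acid alpha-glucosidase that breaks down glycogen, was 0.22 higher (adjusted p = 0.212) with no overlap between the groups. The other 9 ranged from -0.15 for the sulfatase Arsa to 0.11 for the sialidase Neu1, with the acid sphingomyelinase Smpd1 at -0.01, the acid ceramidase Asah1 at -0.08, the galactosidases Gla and Glb1 at 0.09 and 0.10, the galactocerebrosidase Galc at -0.08, the fucosidase Fuca1 at 0.01 and the beta-mannosidase Manba at 0.08.

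Among the 6 enzymes that take glycosaminoglycans apart, 0 passed limma's test. At an unadjusted p under 0.05, 2 of them were higher, beside 5.98% of all genes. Naglu, the glucosaminidase of heparan sulfate breakdown, read 9.08, 9.20 and 8.84 in Mfrp rd6 and 8.41, 8.69, 8.69 and 8.49 in WT. All Mfrp rd6 arrays lay above all WT arrays, and the change of 0.47 did not pass (SE 0.11, adjusted p = 0.06). Naglu passed in 6 of 17 alternatives, over which its change ran from 0.17 with the skeletal muscle mean added as a covariate (adjusted p = 0.864) to 0.57 without Mfrp rd6 replicate 3 (adjusted p = 0.0365). Gusb, the beta-glucuronidase, read 7.45, 7.64 and 7.23 in Mfrp rd6 and 7.03, 7.24, 7.15 and 7.06 in WT (0.32, adjusted p = 0.169), with Mfrp rd6 replicate 3 just under WT replicate 2. Sgsh, the sulfamidase of the heparan sulfate pathway, was at -0.03, the iduronate sulfatase Ids at -0.06, the iduronidase Idua at 0.17 and the sulfatase Arsb at 0.10. A second probe set of Arsb differed by 0.05.

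Of the proteases and the lipid and thioester hydrolases, 0 of 4 passed. At an unadjusted p under 0.05, 1 of them was higher, beside 5.98% of all genes. Lgmn, the asparaginyl endopeptidase that also matures cathepsins, read 10.73, 10.95 and 10.76 in Mfrp rd6 and 10.30, 10.54, 10.58 and 10.46 in WT (0.34, SE 0.09, adjusted p = 0.0996), with no overlap. Lgmn passed in 3 of 17 alternatives, with changes from 0.14 with the muscle covariate to 0.38. Tpp1, the tripeptidyl peptidase lost in a form of Batten disease, read 11.25, 11.11 and 11.01 in Mfrp rd6 and 10.87, 10.98, 11.06 and 10.90 in WT (0.17, adjusted p = 0.364), and its change was -0.01 with the muscle covariate. The palmitoyl thioesterase Ppt1 differed by 0.02 and the acid lipase Lipa by -0.06.

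Of the 3 soluble cofactors, 0 passed limma's test. At an unadjusted p under 0.05, 1 of them was higher, beside 5.98% of all genes. Grn, the progranulin precursor that is also secreted by microglia, read 11.56, 11.63 and 11.44 in Mfrp rd6 and 11.18, 11.34, 11.21 and 11.29 in WT. The groups did not overlap, and the change of 0.29 did not pass (SE 0.08, adjusted p = 0.0986). Npc2, the soluble cholesterol carrier that hands its load to Npc1, read 9.44, 9.50 and 9.40 in Mfrp rd6 and 9.47, 9.49, 9.73 and 9.48 in WT (-0.10, adjusted p = 0.653), where WT replicate 3 stood above the rest. Psap, the precursor of the saposins that present sphingolipids to their enzymes, differed by -0.03 (adjusted p = 0.899).

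**Figure D3:**
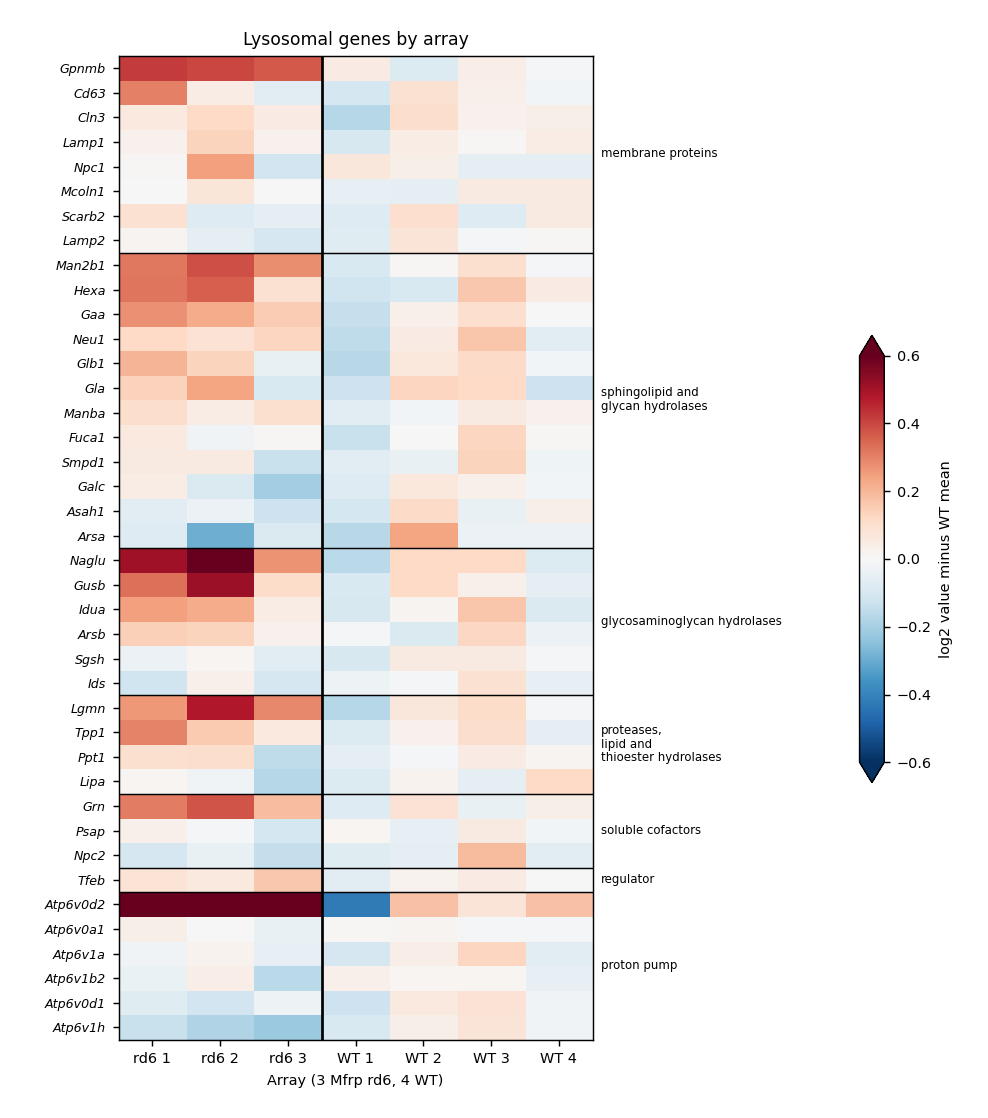
The 40 lysosomal genes (rows, by role) on the 7 arrays (columns), as the log2 value minus the gene's WT mean; red is higher, blue is lower, and the colour scale ends at 0.6 in either direction. The rows of Gpnmb, Man2b1, Naglu, Lgmn, Grn and Atp6v0d2 are red on all 3 Mfrp rd6 arrays, and WT replicate 1 is blue in most rows.

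Within the Mfrp rd6 samples the genes with the larger differences followed a common order. Of the 9 genes with a change above 0.2, chosen on these values and so given as a description, Mfrp rd6 replicate 2 had the highest reading in 7 and replicate 3 the lowest in 8. Their median distance from the WT mean was 0.32, 0.40 and 0.27 in Mfrp rd6 replicates 1, 2 and 3. The low place of replicate 3 was not particular to these 9 genes. Over all 40 genes the median distance was 0.069, 0.066 and -0.038 in the same replicates. How often each replicate was highest or lowest over all genes was not counted. The microglia and macrophage mean and the skeletal muscle mean, given above, were likewise highest in replicate 2 and lowest in replicate 3. The endothelial mean, also higher in Mfrp rd6 than in WT, had another order, with 7.25, 7.35 and 7.64 in replicates 1, 2 and 3. A link between these orders was not tested. Over the whole list the arrays of the groups overlapped. The number of the 40 genes above their WT mean was 31, 28 and 19 in Mfrp rd6 replicates 1, 2 and 3 and 5, 29, 32 and 14 in WT replicates 1 to 4, so that WT replicate 1 was low and WT replicate 3 had the highest number of the 7 arrays.

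The proton pump held both ends of the range of the 40 changes, of which the upper passed the test and the lower did not. Thus 1 of its 6 genes in the list rose and 0 fell, beside 1.34% and 0.813% of all genes. Atp6v0d2, the d2 isoform of the V0 d subunit that is known from osteoclasts and macrophages, read 6.63, 6.70 and 5.91 in Mfrp rd6 and 4.82, 5.42, 5.32 and 5.42 in WT. Every Mfrp rd6 array lay above every WT array, and Mfrp rd6 replicate 3 and WT replicate 1 stood low within their groups. Atp6v0d2 rose by 1.17 (SE 0.21, adjusted p = 0.0198), a fold of 2.25, with means of 6.41 ± 0.44 (SD, n = 3) in Mfrp rd6 and 5.24 ± 0.29 (SD, n = 4) in WT. The probe set is dim, and the authors' normalization compresses changes of dim probe sets. Leaving out Mfrp rd6 replicate 1 (1.06, adjusted p = 0.0848), Mfrp rd6 replicate 2 (1.02, adjusted p = 0.0795) or Mfrp rd6 replicate 2 together with WT replicate 3 (1.05, adjusted p = 0.142) ended the call, as did the muscle covariate (0.63, adjusted p = 0.71). Over the 15 alternatives that gave a value the change ran from 0.63 to 1.42.

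The d1 isoform is made in most tissues and did not pass the test. Atp6v0d1 read 10.65, 10.61 and 10.69 in Mfrp rd6 and 10.60, 10.78, 10.81 and 10.70 in WT, overlapping groups with a change of -0.07 (95% confidence interval -0.24 to 0.09, adjusted p = 0.715). The interval of Atp6v0d2 ran from 0.71 to 1.63. Atp6v1h, the regulatory H subunit of V1, read 9.01, 8.96 and 8.92 in Mfrp rd6 and 9.05, 9.18, 9.22 and 9.12 in WT. All Mfrp rd6 arrays lay below all WT arrays, and the change of -0.18 did not pass (SE 0.07, adjusted p = 0.251). The catalytic A subunit Atp6v1a (-0.02), the B2 subunit Atp6v1b2 (-0.05) and the a1 subunit Atp6v0a1, whose interval ran from -0.14 to 0.14, also did not pass.

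**Figure D4:**
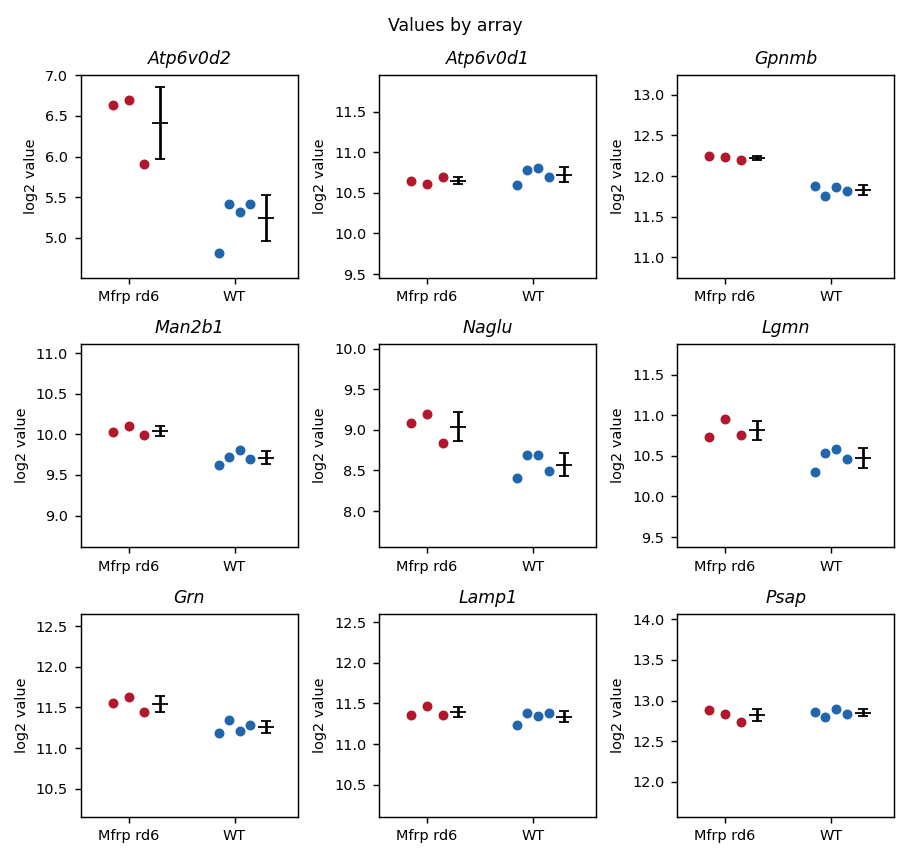
Log2 values (vertical axes, each spanning the same number of log2 units) of 9 lysosomal genes on the 3 Mfrp rd6 arrays (left in each panel) and the 4 WT arrays (right); bars show the mean ± SD. Atp6v0d2, Gpnmb, Man2b1, Naglu, Lgmn and Grn show no overlap between the groups, whereas Atp6v0d1, Lamp1 and Psap do.

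Of 18 further pump genes measured, 1 rose (5.56%) and 0 fell, beside 1.34% and 0.813% of all genes. At an unadjusted p under 0.05, 4 were lower (22.2%) and 1 was higher (5.56%), beside 9.37% and 5.98% of all genes. Among those lower was Atp6v0a2 (-0.18), whose second probe set differed by 0.08. The riser was Tcirg1, the a3 isoform of the V0 a subunit, which osteoclasts need for bone resorption. It read 9.31, 9.38 and 9.33 in Mfrp rd6 and 8.81, 9.08, 8.84 and 8.99 in WT, a rise of 0.41 (SE 0.08, adjusted p = 0.0369) with no overlap. Tcirg1 passed in 7 of 17 alternatives; with a single array left out, it passed without WT replicate 2 and did not pass without any of the other 6. Over all 24 pump genes the median change was -0.052 and 18 were below 0, as were 11256 of the 19938 genes tested. The lowest value was that of Atp6v0e2, a small V0 subunit (-0.33, adjusted p = 0.125).

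**Figure D5:**
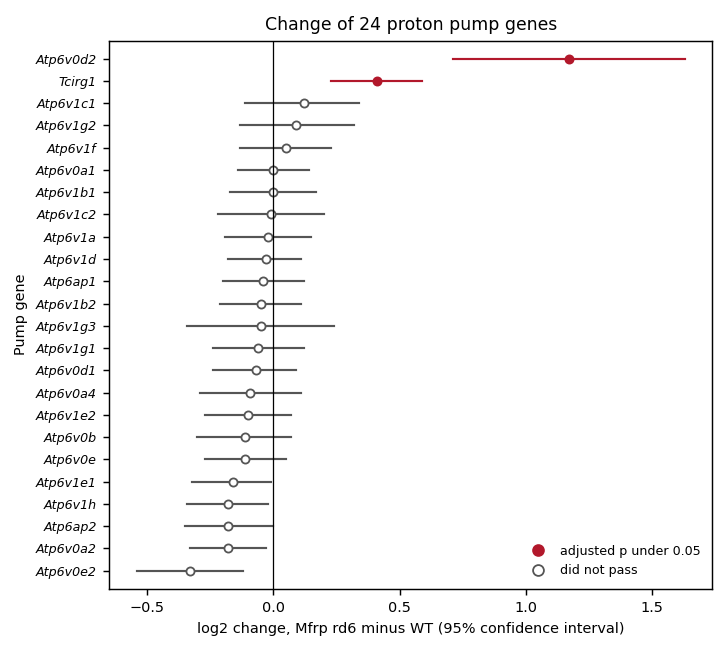
Change of the 24 proton pump genes, Mfrp rd6 minus WT on the log2 scale (horizontal axis), with the 95% confidence interval from limma (bars); filled points passed an adjusted p under 0.05. Atp6v0d2 at 1.17 and Tcirg1 at 0.41 stand to the right, and the other pump genes run from 0.12 for Atp6v1c1 down to -0.33 for Atp6v0e2.

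Beyond the 40 genes, a list of 61 further lysosomal genes was read in the same fit, of which 53 were measured and the other 8 were not analysed here. Of the 53, 4 rose (7.55%) and 0 fell, beside 1.34% and 0.813% of all genes, and the median change was -0.018. Besides Tcirg1 these were Laptm5, a lysosomal membrane protein of blood-derived cells, Cd68, the lysosomal glycoprotein used to mark macrophages, and Pla2g15, the lysosomal phospholipase A2. Laptm5 read 10.11, 10.57 and 9.95 in Mfrp rd6 and 7.67, 8.08, 8.03 and 7.86 in WT, a rise of 2.30 (SE 0.15, adjusted p = 5.33e-05). Cd68 rose by 1.28 (SE 0.13, adjusted p = 0.000844), with 10.39, 10.84 and 10.30 in Mfrp rd6 and 9.11, 9.35, 9.17 and 9.30 in WT. Laptm5 passed in 17 of 17 alternatives and Cd68 in 16 of 17, all but the muscle covariate (1.10, adjusted p = 0.172). Both were highest in Mfrp rd6 replicate 2, where the microglia and macrophage mean and the skeletal muscle mean were highest too.

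Pla2g15 read 7.85, 7.91 and 7.87 in Mfrp rd6 and 7.20, 7.51, 7.49 and 7.53 in WT, a rise of 0.44 (SE 0.09, adjusted p = 0.0396). Pla2g15 passed in 7 of 17 alternatives; with a single array left out, it passed without WT replicate 1 and did not pass without any of the other 6. The lowest change outside the pump was that of Igf2r, the receptor that sorts new hydrolases to the lysosome, with 9.42, 9.38 and 9.34 in Mfrp rd6 and 9.62, 9.71, 9.63 and 9.66 in WT. The groups did not overlap, and the change of -0.28 did not pass (SE 0.06, adjusted p = 0.0658).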

How the data were processed

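RNA from 7 RPE samples was hybridised to 1 array each. The authors deposited log2 values, 1 per probe set and array, made with Affymetrix Expression Console and RMA per the submitters' processing notes, with no versions recorded in the labels. RMA corrects background, equalises the arrays' distributions and summarises probes, and it understates changes of dim probe sets. Of 35556 probe sets, 21789 carried exactly 1 symbol in the platform annotation, which can be old, and the one with the highest mean was kept for each of 19938 genes; 39 of the 40 genes had a single probe set.

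Every gene was fitted with limma 3.58.1 under R 4.3.3 (functions lmFit and eBayes) for the contrast Mfrp rd6 minus WT, with 5 residual degrees of freedom, no filter and no block, and p-values were adjusted by Benjamini-Hochberg over all genes (threshold 0.05). The median standard error of a log2 change was 0.0885. Genes named with values were those past the threshold and the 2 largest changes in each role group; Gaa, Atp6v0d1, Igf2r, Atp6v0e2 and the other genes given by their change alone were added to show their group. The genes, lists and tests were chosen with earlier results of these data known. On simulated data with independent noise, the procedure recovered 10% of genes with a true log2 change of 0.3, 68% at 0.5 and 100% at 1.0. Of 149 calls in that simulation, 10 were false. The simulated spread came from the fit itself and 50 genes were changed at each size, so these rates need not hold for the real arrays. Same-numbered arrays did not deviate together (correlations -0.303, -0.073 and 0.036). Promoter windows came from RefSeq (GRCm38.p6). Alternatives covered normalization, filters on level (a mean of at least 6, or above the median gene mean), variance trend, array weights, probe set choice, a block, a skeletal muscle covariate and left-out arrays. Tables and figures used Python 3.11.15, pandas 2.3.3 and matplotlib 3.10.9.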

Additional observations from a re-analysis of the deposited data

Results flagged for a closer look

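Of 44 genes whose 4 WT arrays were checked for a value far from the others (the 40 and the 4 further lysosomal genes that rose), 3 had one; chance flags about 1 in 20. Atp6v0d2 read 4.82 in WT replicate 1, against 5.32 to 5.42 in the other WT arrays. Without that array it rose by 1.03 (limma, adjusted p = 0.0464). Pla2g15 read 7.20 in WT replicate 1, below 7.49 to 7.53 in the others. Npc2 read 9.73 in WT replicate 3, above 9.47 to 9.49, and this array also had the highest rod mean (8.02).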

How the results depend on the processing

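Of the 40 genes, 2 rose in the fit as reported. The number was 4 with quantile normalization repeated, 5 among genes above the median gene mean, 6 with a variance trend and 6 with array weights; Man2b1 and Naglu passed in these 4 fits, and Lgmn and Grn in the last 3. It was 0 with the mean of skeletal muscle markers as a covariate, 0 without WT replicate 3 and Mfrp rd6 replicate 2 together, and 0 to 3 with 1 array left out (0 without Mfrp rd6 replicate 1 or 2, 1 without WT replicate 4). None of the 40 fell in any of the 17 alternatives. The median change of the 40 was -0.07 with the muscle covariate and 0.023 to 0.081 in the other 16. Of the further lysosomal genes, 4 rose as reported, 5 with quantile normalization repeated and 5 among genes with a mean of at least 6. The number was 6 above the median gene mean and 6 with the variance trend. Slc17a5 passed in 4 of 17 alternatives and Cln6 in 2. The number was 2 with centring on array medians, 1 with the muscle covariate (Laptm5) and 2 without both named arrays together. With 1 array left out, 2 to 3 of the further lysosomal genes rose. 1 fell, Igf2r, with either filter on level, the variance trend or array weights (adjusted p of 0.0193 to 0.0352). Their median change was -0.107 with the muscle covariate.

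Over all genes, 267 rose and 162 fell as reported. Risers numbered 405 with array weights, 22 with the muscle covariate, 155 without both named arrays and 152 to 235 with 1 array left out. Fallers numbered 302 above the median gene mean, 355 with the variance trend, 274 with array weights, 25 with the muscle covariate, 38 without both named arrays and 59 to 108 with 1 array left out. The labels do not say whether the replicate numbers pair the samples. With these numbers as a block, 1 of the 40 (Atp6v0d2) and 2 further lysosomal genes rose, and 166 genes rose and 59 fell in all. Without Mfrp rd6 replicate 1, the comparison at equal ages by the growth protocol, Gpnmb changed by 0.38 and Atp6v0d2 by 1.06, and neither passed. With the muscle covariate Gpnmb changed by 0.34 (SE 0.12, adjusted p = 0.485) and Atp6v0d2 by 0.63 (SE 0.33, adjusted p = 0.71). Their SEs in the fit as reported were 0.07 and 0.21. Because the muscle mean differed between the groups, this fit cannot tell muscle and genotype apart. Both filters on level leave out Atp6v0d2, so they give no value for it. The cause of these shifts was not tested. The number of arrays and the dim signal of Atp6v0d2, close to the arrays' lower quartiles of 4.90 to 5.02 in WT, limit what can be detected.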
